A study of Mus musculus with 24 samples.

Results

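The RNA of 9 genes of the endoplasmic reticulum (ER) stress response and the integrated stress response was followed through obstruction and recovery of the mouse kidney. These genes, Hspa5, Hsp90b1, Sdf2l1, Herpud1, Ddit3, Atf4, Trib3, Asns and Chac1, were chosen by name, and each has 1 row among the 14785 genes of the deposited table. Bulk RNA of the whole kidney was sequenced after polyA selection in 24 male C57/BL6 mice, 6 groups of 4, aged 8 weeks by their labels and 8 to 9 weeks at the start by the design text. Sham mice had sham surgery, UUO2 mice had 1 ureter tied (unilateral ureter obstruction) and were killed at 2 days, and UUO7 mice were killed after 7 days of the same ligation. R1W, R2W and R4W mice had 7 days of obstruction, then surgery that reimplanted the ureter, and were killed 1, 2 or 4 weeks later. By the design text each group had 10 animals, of which 4 were chosen for sequencing, and how they were chosen is not given. No group carried a transgene or a drug by its labels, and the day on which sham mice were killed is not given.

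Proteins that enter the ER are folded there, and unfolded protein sets off 3 sensors: IRE1 (gene Ern1), PERK (Eif2ak3) and ATF6 (Atf6). IRE1 splices Xbp1 RNA, and the XBP1 and ATF6 factors raise ER chaperones and degradation factors. PERK, together with kinases that sense amino acid shortage, heme shortage and viral RNA, phosphorylates the initiation factor eIF2, which lowers translation in general while favouring that of ATF4. That shared branch is called the integrated stress response, and ATF4 raises genes of amino acid supply and, with sustained stress, CHOP (Ddit3). In the kidney both arms are known from proximal tubule injury. The RNA level of Atf4 is only one part of its control, since much of it acts on translation, which was not measured here.

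By role, Hspa5 encodes BiP, the main Hsp70 chaperone of the ER, Hsp90b1 encodes the ER Hsp90 protein GRP94, and Sdf2l1 encodes a partner of BiP in the ER lumen. Herpud1 encodes a membrane protein that organises ER-associated degradation. Atf4 and Ddit3 encode the transcription factors ATF4 and CHOP. Trib3, Asns and Chac1 are known targets of ATF4: Trib3 encodes a pseudokinase that restrains ATF4 and CHOP, Asns encodes asparagine synthetase, and Chac1 encodes an enzyme that breaks down glutathione. By the deposited table, on GRCm38, the genes lie at chr2:34771970-34777547 (Hspa5, + strand), chr10:86690209-86705509 (Hsp90b1, -), chr16:17130138-17132383 (Sdf2l1, -), chr8:94386438-94395377 (Herpud1, +), chr10:127290774-127296288 (Ddit3, +), chr15:80255184-80257540 (Atf4, +), chr2:152337422-152344032 (Trib3, -), chr6:7675169-7693254 (Asns, -) and chr2:119351229-119354381 (Chac1, +). All 9 are protein-coding, and Hspa5, for example, is listed under ENSMUSG00000026864.13.

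The promoters of some of these genes hold elements that the stress factors are known to bind, and they are printed because the members share them by role. RefSeq windows (GRCm38.p6, 250 bases before to 50 after the annotated start) were found for 9 of 9 genes and searched on both strands. The ER stress response element, CCAAT and CCACG with any 9 bases between them, a binding site known for NF-Y with ATF6, was found in Hspa5 and, in 2 copies, in Hsp90b1, and in 0.119% of 32851 windows of all genes. In the lines that follow, capitals mark the matching letters and each sequence is read along the gene's own strand, so that a match on the opposite strand appears as its complement.
Hspa5, chr2:34772020-34772048 (+): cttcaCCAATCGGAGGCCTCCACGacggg
Hsp90b1, chr10:86705633-86705661 (-): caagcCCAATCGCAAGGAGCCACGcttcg
Hsp90b1, chr10:86705528-86705556 (-): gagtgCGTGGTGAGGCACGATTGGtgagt
These matches begin 65 bases before the RefSeq start of Hspa5 and 212 and 107 bases before that of Hsp90b1, the last on the opposite strand. In the GENCODE M21 annotation the Hspa5 match lies in an exon of a transcript with an earlier start, and both Hsp90b1 matches lie outside the gene model.

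The second ER stress response element, ATTGG and CCACG with any 1 base between them, was found in Herpud1 alone among the 9, and in 0.0365% of all windows. The C/EBP-ATF response element TGATGNAA, the type of site known for ATF4 and CHOP dimers, was found in Herpud1, Trib3, Asns and Chac1, and in 3.97% of all windows.
Herpud1, chr8:94386368-94386396 (+): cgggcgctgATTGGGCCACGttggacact
Herpud1, chr8:94386306-94386335 (+): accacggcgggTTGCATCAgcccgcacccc
Trib3, chr2:152344028-152344057 (-): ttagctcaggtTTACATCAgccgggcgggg
Asns, chr6:7693214-7693243 (-): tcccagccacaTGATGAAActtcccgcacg
Chac1, chr2:119351038-119351067 (+): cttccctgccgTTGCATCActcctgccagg
The Herpud1 matches begin 52 and 112 bases before its start, that of Asns 23 and that of Chac1 193 bases before, while that of Trib3 begins at base 15 after the RefSeq start. The Asns match is exonic in GENCODE M21, and those of Herpud1, Trib3 and Chac1 lie outside its gene models. The end of the Trib3 window was not found in a transcript, while the ends of the other windows were. The XBP1 and ATF6 element TGACGTGG was found in 0 of 9 windows and in 0.676% of all windows, and Sdf2l1, Ddit3 and Atf4 held none of the 4 motifs in these windows. A match is a description of the letters and was not tested as a site.

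Levels are in FPKM, in which the fragments of a gene are divided by its transcript length and by the library size, a unit inferred here from the values. Counts behind them are not analysed here, so the counting error of low genes, such as Trib3 and Chac1 in sham, is not given. Differences were tested with limma on log2(FPKM + 1) with all 24 libraries in 1 model, and the calling threshold was a p of 0.05 after Benjamini-Hochberg adjustment over all 14785 genes. Fold changes are on that log2 scale, on which changes of weakly expressed genes such as Trib3 and Chac1 come out too small, and their SE is the same in each comparison of a gene because each group has 4 libraries. FPKM is relative to the whole library, and the median of all genes lay 0.09 above sham in UUO2 and 0.42, 0.37, 0.32 and 0.30 above it in UUO7, R1W, R2W and R4W on the log2 scale. Each result was therefore also computed after dividing every library by the median, over genes, of its ratios to their geometric means, and the rescaled result is given where its call differed.

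The 4 UUO2 libraries stand apart from the other 20. Their sample descriptions follow another naming, the design text speaks of 20 multiplexed libraries, and their mitochondrial ribosomal RNA gene mt-Rnr1 was at 2343 to 2832 FPKM against 342 to 709 in the others. No label calls them a batch of their own, and whether they were prepared or sequenced apart is not given in the sources used here. Day 2 and whatever else sets these 4 libraries apart cannot be told apart. The kidney label was met by its markers: 8 of 8 proximal tubule genes had a row, with summed levels of 5453 to 6460 FPKM in sham, 2492 to 3647 in UUO2, 1392 to 1818 in UUO7 and 2810 to 3812 in R4W, and none of the 8 was at 0 in a group. All 6 injured tubule markers summed to 81.0 to 142 FPKM in sham, 781 to 1452 in UUO2, 1740 to 2163 in UUO7 and 399 to 533 in R4W, and all 6 macrophage markers to 48.7 to 81.9, 82.4 to 189, 937 to 1126 and 689.9 to 1368 in the same groups. The macrophage markers did not move together at 2 days. Cd68, Lyz2, C1qa and C1qb lay above sham in every UUO2 library. Csf1r was lower, at 6.34 to 9.81 FPKM against 16.7 to 19.8 in sham, and Adgre1 overlapped sham (0.76 to 1.52 against 0.56 to 0.94). In bulk kidney, fewer cells of a type and less RNA per cell cannot be told apart, and the part of these shifts in the levels of the 9 genes was not tested. R4W replicate 2 is placed at 4 weeks by its title and at 2 weeks by its treatment label, and was grouped by title.

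After 2 days of obstruction 8 of the 9 genes were higher than in sham and Herpud1 was lower. The largest rises among them were in the ATF4 targets: Trib3 stood at 18.8 times, Asns at 7.87 times and Chac1 at 5.41 times its mean FPKM in sham. Chaperone RNA rose less, with Hspa5 at 1.74 times and Hsp90b1 at 1.44 times sham. All 9 were called, 8 higher and 1 lower, against 49.2% of all genes called, 32.3% higher and 17.0% lower. The median log2 fold change of the 9 was 1.13, beside 0.09 for all genes. After rescaling the same count of 8 higher and 1 lower was found, against 25.3% of all genes higher and 25.5% lower.

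Hspa5, the BiP chaperone, was at 129, 141, 132 and 150.2 FPKM in sham replicates 1 to 4 and at 255, 229.7, 234 and 245 in UUO2. All UUO2 libraries lay above all sham libraries, and the change was 0.80 ± 0.13 (SE, log2, n = 4 per group, limma adjusted p = 2.69e-05). Hsp90b1 (GRP94) was at 137, 133, 134 and 153 FPKM in sham and at 211, 182, 187 and 220.0 in UUO2, again without overlap, a rise of 0.52 ± 0.10 (limma adjusted p = 0.000251). Sdf2l1, the BiP partner, was at 5.70, 7.22, 6.20 and 7.62 FPKM in sham and at 16.3, 20.3, 10.8 and 16.9 in UUO2. Its lowest UUO2 library was still above sham, and it rose by 1.13 ± 0.16 (limma adjusted p = 6.84e-06), which made it the chaperone gene with the greatest fold change of these.

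Herpud1, the degradation scaffold, moved against the other 8. It was at 144, 143, 131 and 124 FPKM in sham and at 122, 114, 92.6 and 83.6 in UUO2, with a narrow gap between the groups. It fell by 0.40 ± 0.12 on the log2 scale (limma adjusted p = 0.0104). Without UUO2 replicate 4, its lowest library, the change was -0.31 and the adjusted p was 0.0532, so this call rests on that library. After rescaling the change was -0.54 (limma adjusted p = 0.00383).

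Of the transcription factors, Atf4 was at 55.4, 57.4, 54.0 and 58.5 FPKM in sham and at 119.8, 67.7, 128 and 132 in UUO2. Replicate 2 of UUO2 was far below the other 3 and yet above sham, and Atf4 rose by 0.93 ± 0.16 (limma adjusted p = 6.97e-05). Ddit3 (CHOP) was at 13.5, 19.0, 13.8 and 15.8 FPKM in sham and at 38.4, 27.0, 45.2 and 45.7 in UUO2, with the same replicate lowest, and rose by 1.26 ± 0.16 (limma adjusted p = 1.96e-06). Ddit3 overlaps Mars, a tRNA synthetase gene on the opposite strand that also rose here. It also overlaps Gm4189 on the opposite strand and, on its own strand, another gene model named Ddit3 that has no row. Whether reads were counted by strand is not given in the sources used here, so reads of these overlapping genes may not be fully separated. The same limit holds for Hsp90b1, whose gene model is overlapped by 1810014B01Rik on the opposite strand and Gm15344 on its own.

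Trib3, the pseudokinase, was at 0.40, 0.73, 0.70 and 1.02 FPKM in sham and at 15.2, 4.78, 17.0 and 16.6 in UUO2. It was close to or under 1 FPKM in all sham libraries and well above that in all 4 UUO2 libraries, a change of 2.95 ± 0.25 (limma adjusted p = 1.47e-08). Asns was at 4.06, 2.86, 3.88 and 4.76 FPKM in sham and at 31.4, 15.7, 41.9 and 33.5 in UUO2, a change of 2.63 ± 0.24 (limma adjusted p = 3.43e-08). Chac1, the glutathione-degrading enzyme, was at 0.82, 2.29, 1.23 and 2.90 FPKM in sham and at 12.4, 3.22, 12.4 and 11.1 in UUO2, a change of 1.87 ± 0.28 (limma adjusted p = 1.60e-05). For Chac1 the gap between the groups was small, because UUO2 replicate 2 lay just above the highest sham library.

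**Figure D1:**
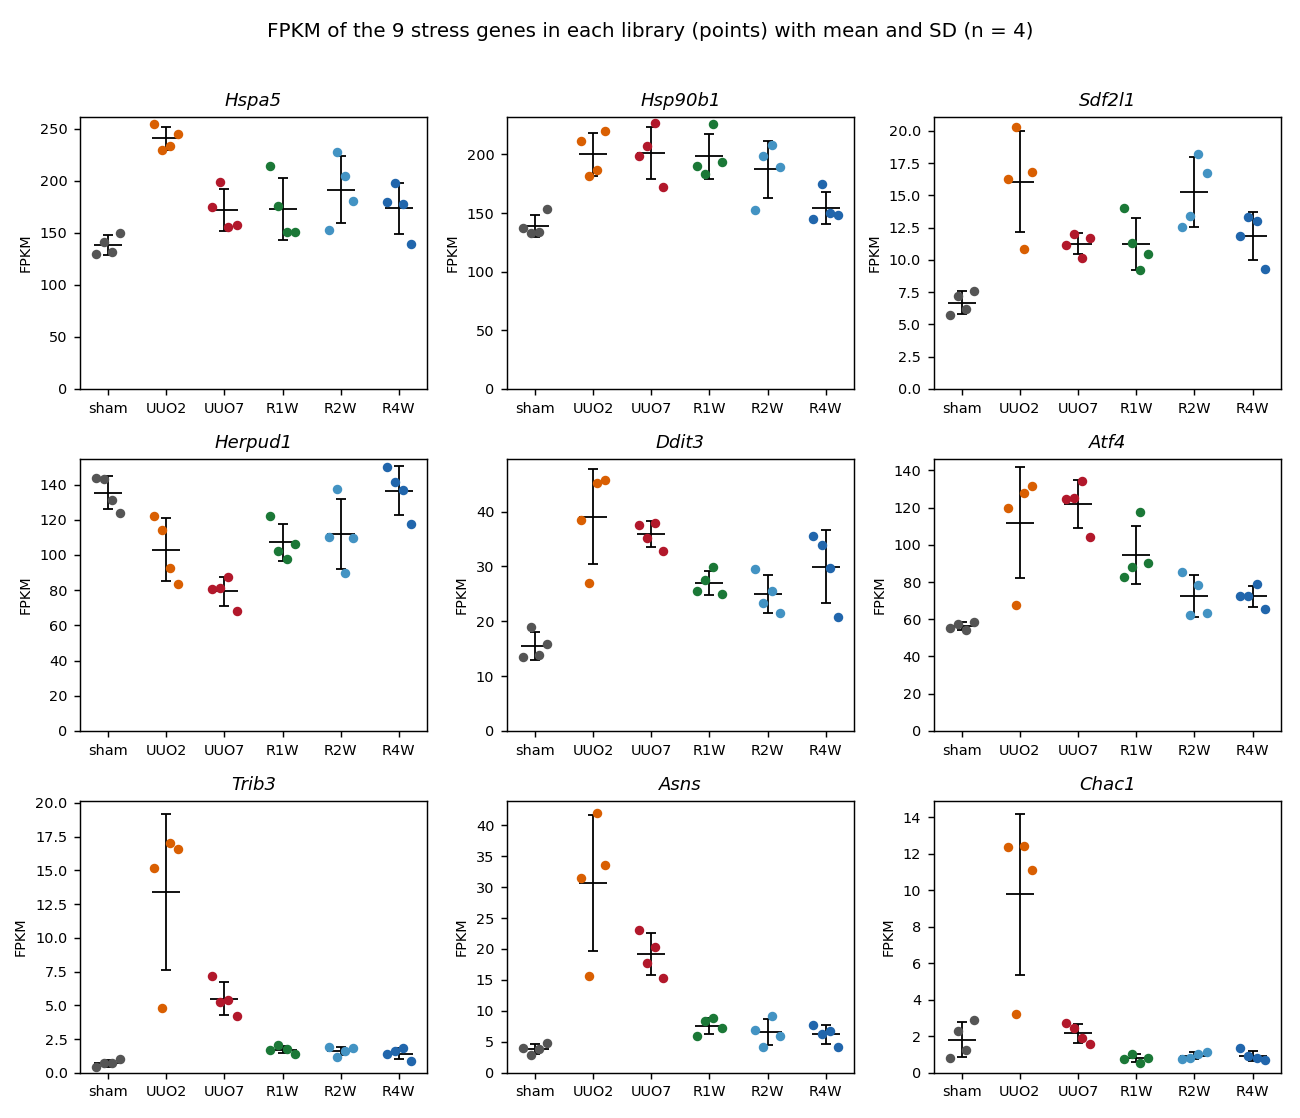
FPKM of each of the 9 genes (vertical axis from 0) in every library (points, replicates 1 to 4 from left to right) by group, with the mean (horizontal mark) and SD (bars, n = 4). Trib3, Asns and Chac1 peak in UUO2, where 3 libraries lie together and replicate 2 lies below them, while Herpud1 is lowest in UUO7, between 68.0 and 87.5 FPKM.

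Most of these genes were lowest in the same UUO2 library. Replicate 2 was the lowest of its group in 7 of the 9 genes, the exceptions being Sdf2l1, in which it was highest, and Herpud1. Without it 9 of 9 genes were called, beside 52.7% of all genes, and the change against sham was 3.34 for Trib3, 2.91 for Asns, 2.27 for Chac1, 1.15 for Atf4 and 1.43 for Ddit3. For Hspa5 and Hsp90b1 the values without it were 0.82 and 0.56, close to those with it. The same library had the highest summed proximal tubule markers of UUO2 (3647 FPKM against 2492 to 3013), the highest markers of the thick ascending limb and distal nephron (2233 against 973 to 1231, 5 of 5 markers with a row) and the lowest injured tubule markers (781 against 1209 to 1452). The part of that makeup in its lower stress gene levels was not tested.

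**Figure D2:**
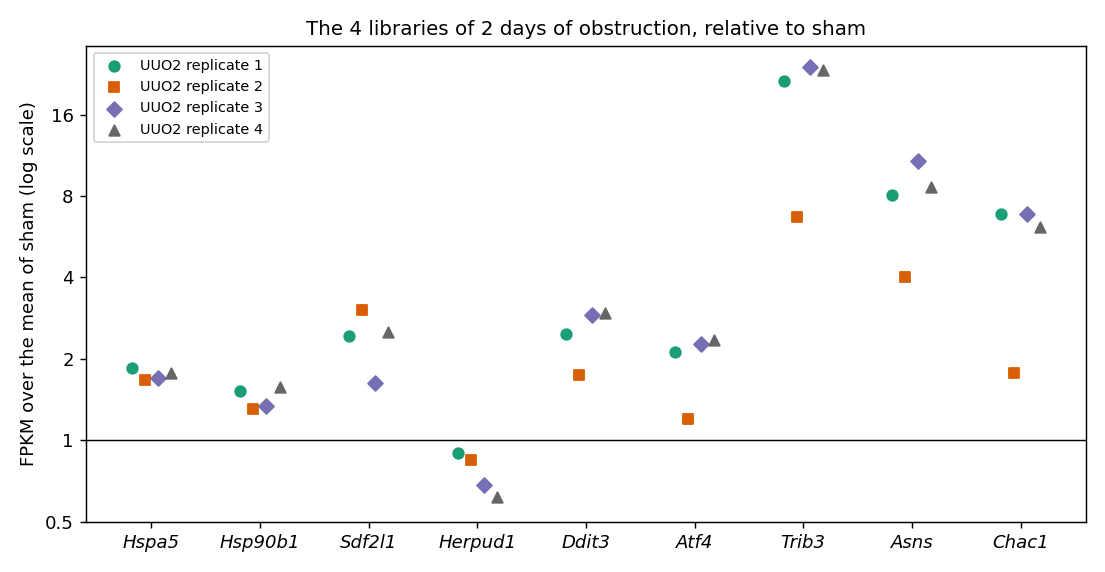
FPKM of the 9 genes in each UUO2 library divided by the mean of the 4 sham libraries (log scale, line at 1 for equality). Replicate 2 (squares) lies below the other 3 libraries in Atf4, Ddit3, Trib3, Asns and Chac1, and the 4 libraries are close together in Hspa5 and Hsp90b1.

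After 7 days of obstruction, Trib3, Asns, Ddit3 and Atf4 were higher than in sham and Herpud1 was lower, at 0.585 times its sham mean. Chac1 lay within the range of sham. The chaperones Hspa5, Hsp90b1 and Sdf2l1 were higher in the values as deposited, but not after rescaling. Of the 9 genes 7 were called higher and 1 lower, against 77.9% of all genes called, 60.1% higher and 17.8% lower, and the median of the 9 was 0.68 beside 0.42 for all genes. After rescaling 4 were called higher and 1 lower, against 36.5% of all genes in each direction, with a median of 0.24 beside 0.01.

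In UUO7, Atf4 was at 124, 125, 134 and 104 FPKM and all 4 libraries were above all sham libraries, a rise of 1.10 ± 0.16 (limma adjusted p = 2.57e-06) that was 0.61 after rescaling. Ddit3 was at 37.5, 35.2, 38.0 and 32.8 FPKM, a rise of 1.17 ± 0.16 (limma adjusted p = 1.01e-06) that was 0.70 after rescaling. The 4 UUO7 libraries of both factor genes lay closer together than those of UUO2. Trib3 was at 7.15, 5.22, 5.43 and 4.23 FPKM, 7.73 times the sham mean, with a change of 1.92 ± 0.25 (limma adjusted p = 6.57e-07). Asns was at 23.1, 17.8, 20.4 and 15.3 FPKM, 4.92 times the sham mean, with a change of 2.04 ± 0.24 (limma adjusted p = 1.43e-07). Neither gene overlapped sham, and after rescaling their changes were 1.64 and 1.62.

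Chac1 was at 2.74, 2.45, 1.93 and 1.59 FPKM in UUO7, inside the sham range of 0.82 to 2.90, and its difference of 0.23 ± 0.28 was not called (limma adjusted p = 0.465), or -0.08 after rescaling (limma adjusted p = 0.804). Herpud1 was at 80.7, 81.1, 87.5 and 68.0 FPKM, below every sham library, and fell by 0.77 ± 0.12 (limma adjusted p = 9.96e-06) or by 1.25 after rescaling.

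Hspa5 was at 175, 199, 156 and 158 FPKM in UUO7, above the highest sham library of 150.2, with a change of 0.31 ± 0.13 (limma adjusted p = 0.0310). The call was lost without sham replicate 1 or 3 or UUO7 replicate 1 or 2 (0.24 to 0.30, adjusted p 0.0594 to 0.112), and after rescaling the change was -0.18 (limma adjusted p = 0.258). Hsp90b1 was at 199, 207, 227 and 173 FPKM, a change of 0.52 ± 0.10 (limma adjusted p = 7.43e-05) that was 0.04 after rescaling (limma adjusted p = 0.769). Sdf2l1 was at 11.2, 12.0, 10.2 and 11.7 FPKM, a change of 0.68 ± 0.16 (limma adjusted p = 0.000539) that was 0.24 after rescaling (limma adjusted p = 0.168). For these 3 chaperones the direction or the call at 7 days therefore turned on the scaling, while at 2 days it did not.

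Set against each other, 6 of the 9 genes were called lower at 7 days than at 2 days of obstruction and 0 were called higher. Of all genes 66.7% were called in this comparison, 52.0% higher and 14.7% lower, with a median of 0.28, while the median of the 9 was -0.45. Chac1 differed most, by -1.64 ± 0.28 (limma adjusted p = 3.40e-05), with every UUO7 library below every UUO2 library. Trib3 fell by 1.03 ± 0.25 (limma adjusted p = 0.00128), though its UUO7 libraries overlapped UUO2 replicate 2, and Asns fell by 0.59 ± 0.24 (limma adjusted p = 0.0374). The Asns call was lost without any 1 of UUO2 replicates 1, 3 and 4 or UUO7 replicates 2 and 4, with adjusted p between 0.0740 and 0.149.

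Hspa5 fell by 0.49 ± 0.13 between 2 and 7 days (limma adjusted p = 0.00184), with no overlap between 156 to 199 FPKM at 7 days and 229.7 to 255 at 2 days. Sdf2l1 fell by 0.45 ± 0.16 (limma adjusted p = 0.0169), a call lost without UUO2 replicate 2, its highest library (-0.33, adjusted p = 0.0775). Herpud1 fell by 0.36 ± 0.12 (limma adjusted p = 0.0143), a call lost without UUO2 replicate 1 or UUO7 replicate 4 (adjusted p = 0.0655 and 0.0592). Hsp90b1, Ddit3 and Atf4 were not called, with differences of 0.01, -0.09 and 0.17 and limma adjusted p of 0.955, 0.616 and 0.369. After rescaling 8 of 9 were lower, Hsp90b1 (-0.34, limma adjusted p = 0.0145) and Ddit3 (-0.44, limma adjusted p = 0.0133) among them, while Atf4 was at -0.18 and not called (limma adjusted p = 0.313), against 30.0% of all genes higher and 31.9% lower. Time and the other differences of the UUO2 libraries, such as their mt-Rnr1 level, cannot be told apart here.

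**Figure D3:**
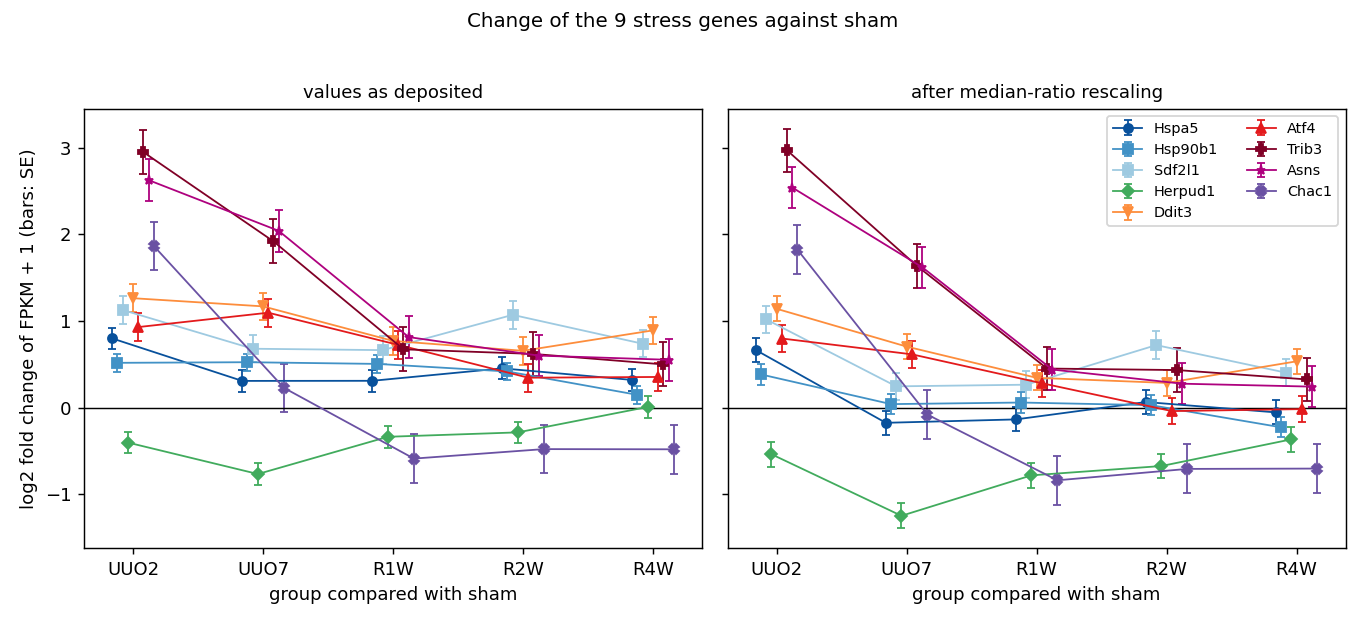
Log2 fold change of FPKM + 1 against sham (points, with SE bars) for the 9 genes in each of the 5 other groups, as deposited (left) and after median-ratio rescaling (right). Trib3 and Asns start at 2.95 and 2.63 and fall through UUO7 to below 1 in the recovery groups, and the 3 chaperone genes lie above 0 in UUO7 on the left and between -0.18 and 0.24 on the right.

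One week after the reversal of obstruction, Trib3 and Asns had fallen from their 7 day levels and Herpud1 had risen. Of the 9 genes 3 were called, 1 higher and 2 lower, against 14.5% of all genes, 6.47% higher and 8.04% lower, and rescaling also gave 1 higher and 2 lower, against 7.26% and 7.14% of all genes. Trib3 was at 1.67, 2.05, 1.77 and 1.38 FPKM in R1W, 0.312 times its UUO7 mean and below every UUO7 library, a change of -1.25 ± 0.25 (limma adjusted p = 0.00382). Asns was at 5.97, 8.30, 8.81 and 7.25 FPKM, 0.396 times UUO7 and again without overlap, a change of -1.23 ± 0.24 (limma adjusted p = 0.00313). Herpud1 was at 122, 102, 98.0 and 106 FPKM, above every UUO7 library, a change of 0.43 ± 0.12 (limma adjusted p = 0.0250). The Herpud1 call was lost without UUO7 replicate 1 or 4 or R1W replicate 1 or 4 (0.36 to 0.44, adjusted p 0.0503 to 0.0852).

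Chac1 was at 0.77, 1.05, 0.52 and 0.84 FPKM in R1W, each library below those of UUO7, and its difference of -0.82 ± 0.28 missed the threshold (limma adjusted p = 0.0537). Ddit3, at 25.5, 27.4, 30.0 and 25.1 FPKM, also lay below all UUO7 libraries with a difference of -0.40 ± 0.16 (limma adjusted p = 0.0928). Atf4, at 82.5, 87.8, 118 and 90.2 FPKM, overlapped UUO7 and differed by -0.37 ± 0.16 (limma adjusted p = 0.119), and without R1W replicate 3, its highest library, it was called (-0.48, adjusted p = 0.0495). With only these 2 groups in the model, or without UUO2, 5 of the 9 genes were called, 1 higher and 4 lower, beside 14.3% and 17.6% of all genes in these fits. The chaperones were not called: Hspa5 (150.5 to 214 FPKM), Hsp90b1 (183 to 226) and Sdf2l1 (9.19 to 14.0) differed from UUO7 by 0.00, -0.02 and -0.02, with limma adjusted p of 0.998, 0.921 and 0.959, and after rescaling the latter pair were at 0.02 each.

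From 1 to 2 weeks and from 2 to 4 weeks of recovery 0 of the 9 genes were called by limma. Of all genes 0.00676% and 0.0609% were called in the same comparisons. At an unadjusted limma p under 0.05 there were 2 and 3 of the 9 genes, beside 15.9% and 8.96% of all genes. In R2W the levels ran from 152 to 228 FPKM for Hspa5 (median 192), 153 to 208 for Hsp90b1 (median 194), 90.0 to 138 for Herpud1 (median 110), 62.3 to 85.4 for Atf4 (median 71.1), 21.5 to 29.5 for Ddit3 (median 24.4), 1.17 to 1.88 for Trib3 (median 1.73), 4.15 to 9.20 for Asns (median 6.44) and 0.76 to 1.14 for Chac1 (median 0.92). The ranges of R1W and R2W overlapped for each of these genes. Sdf2l1 was at 12.5, 13.4, 18.2 and 16.8 FPKM in R2W, the highest mean of the 3 recovery groups, 0.41 ± 0.16 above R1W (limma adjusted p = 0.227).

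At 4 weeks, Atf4 had fallen from its 7 day level to 72.5, 72.4, 79.1 and 65.6 FPKM, with no overlap with UUO7 and a change of -0.74 ± 0.16 (limma adjusted p = 0.000820). Herpud1 was at 150.15, 142, 137 and 117 FPKM, 1.72 times its UUO7 mean and above every UUO7 library, a change of 0.78 ± 0.12 (limma adjusted p = 6.24e-05). Trib3 was at 1.37, 1.60, 1.83 and 0.90 FPKM (-1.42 ± 0.25 from UUO7, limma adjusted p = 0.000155) and Asns at 7.72, 6.22, 6.83 and 4.14 FPKM (-1.49 ± 0.24, limma adjusted p = 6.55e-05). In all, 6 of 9 genes were called in R4W against UUO7, 1 higher and 5 lower, against 48.4% of all genes called, 17.6% higher and 30.8% lower. The other 2 that fell were Hsp90b1 (-0.38 ± 0.10, limma adjusted p = 0.00432) and Chac1 (-0.71 ± 0.28, limma adjusted p = 0.0421). After rescaling 1 was higher and 3 lower, against 25.1% and 23.2% of all genes, and neither Hsp90b1 nor Chac1 was among them (adjusted p = 0.0626 and 0.0742), and the Chac1 call was also lost without any 1 of UUO7 replicates 1, 2 and 3 or R4W replicates 2, 3 and 4 (adjusted p 0.0619 to 0.104). Ddit3 was not called against UUO7 (-0.28 ± 0.16, limma adjusted p = 0.157).

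Against sham, Ddit3 and Sdf2l1 were called higher at 4 weeks under both scalings. Ddit3 was at 35.5, 33.9, 29.6 and 20.8 FPKM in R4W, 1.93 times sham and above its highest library, a change of 0.89 ± 0.16 (limma adjusted p = 6.55e-05) that was 0.53 after rescaling (limma adjusted p = 0.00350). Sdf2l1 was at 11.8, 13.3, 13.0 and 9.26 FPKM, 1.77 times sham and also without overlap, a change of 0.74 ± 0.16 (limma adjusted p = 0.000407) that was 0.40 after rescaling (limma adjusted p = 0.0327). Of the 9 genes 4 were called higher and 0 lower, against 66.4% of all genes called, 54.8% higher and 11.6% lower.

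The other 2 calls at 4 weeks were weaker. Hspa5, at 179.5, 198, 178 and 139.5 FPKM, overlapped sham and rose by 0.32 ± 0.13 (limma adjusted p = 0.0309), and Asns overlapped sham with a change of 0.55 ± 0.24 (limma adjusted p = 0.0490). Leaving out sham replicate 1 or 3 or R4W replicate 1, 2 or 3 ended both calls, and sham replicate 2 that of Asns as well, so that as few as 2 of 9 genes were called, beside 61.2% to 66.0% of all genes in those 6 fits. Neither was called after rescaling (Hspa5 -0.06, adjusted p = 0.748, and Asns 0.24, adjusted p = 0.388). Placing R4W replicate 2 at 2 weeks, where its treatment label puts it, also left 2 genes called, beside 61.7% of all genes. Without UUO2 in the model, on the other hand, 7 of the 9 were called, 6 higher and 1 lower, near the 67.4% of all genes called in that fit (55.3% higher, 12.1% lower). Atf4 (0.35, limma adjusted p = 0.0108), Trib3 (0.50, limma adjusted p = 0.00729) and Chac1 (-0.48, limma adjusted p = 0.0344) were the added calls, with the same differences and smaller SE.

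Herpud1 was close to its sham mean at 4 weeks in the deposited values, with a difference of 0.01 ± 0.12 (limma adjusted p = 0.964), but at -0.37 after rescaling (limma adjusted p = 0.0329). Chac1 was at 1.34, 0.92, 0.80 and 0.69 FPKM in R4W and differed from sham by -0.48 ± 0.28 (limma adjusted p = 0.135), or by -0.71 after rescaling (limma adjusted p = 0.0371). On the rescaled values 2 of the 9 genes were thus called higher and 2 lower at 4 weeks, against 28.9% and 31.1% of all genes. Atf4 differed from sham by 0.35 ± 0.16 (limma adjusted p = 0.0570) and by -0.02 after rescaling, Hsp90b1 by 0.15 ± 0.10 (limma adjusted p = 0.204) and by -0.23, and Trib3 by 0.50 ± 0.25 (limma adjusted p = 0.0876) and by 0.32.

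At 1 week 7 of the 9 genes were higher than sham and Herpud1 was lower in the deposited values, with Chac1 not called. At 2 weeks 6 were higher and Herpud1 was lower, with Atf4 and Chac1 not called. Of all genes 74.1% were called in R1W (59.4% higher, 14.7% lower) and 69.0% in R2W (56.1% higher, 12.9% lower). After rescaling 1 was higher and 2 lower in each: Ddit3 was higher in R1W (0.34, adjusted p = 0.0426) and Sdf2l1 in R2W (0.72, adjusted p = 0.000469), and Herpud1 (-0.78 and -0.68) and Chac1 (-0.84 and -0.71) were lower in both, against 33.7% and 31.1% of all genes higher and 34.6% and 32.5% lower. The other calls were lost: in R1W Hspa5 went from 0.31 to -0.14, Hsp90b1 from 0.50 to 0.06, Sdf2l1 from 0.66 to 0.26, Atf4 from 0.72 to 0.28, Trib3 from 0.67 to 0.45 and Asns from 0.81 to 0.44 (limma adjusted p 0.103 to 0.669 rescaled). In R2W Hspa5 went from 0.45 to 0.06, Hsp90b1 from 0.42 to 0.03, Ddit3 from 0.66 to 0.28, Trib3 from 0.62 to 0.43 and Asns from 0.60 to 0.28 (limma adjusted p 0.0948 to 0.855 rescaled), and Atf4, not called under either scaling, from 0.34 to -0.04. The R1W call of Hspa5 was also lost without sham replicate 1 or 3 or R1W replicate 1 or 2 (limma adjusted p 0.0633 to 0.149). That of Herpud1 was lost without sham replicate 1 or R1W replicate 3 (limma adjusted p = 0.0502 and 0.0550). That of Trib3 was lost without sham replicate 1 or R1W replicate 2 (limma adjusted p = 0.0659 and 0.0546). Without sham replicate 1 Chac1 was called lower (-0.78, limma adjusted p = 0.0223). The R1W count ran from 6 to 8, when 70.3% to 73.6% of all genes were called. The R2W count was 4 without sham replicate 2 or 3 or R2W replicate 1 or 3, when 63.3% to 68.8% of all genes were called. In R2W Herpud1 and Trib3 each lost their call in 6 of 8 fits that left out 1 library, and Asns in 4 of 8. These comparisons share the 4 sham libraries, so their calls are not independent of each other.

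Replicate 4 of R4W was the lowest of its group in 8 of the 9 genes, and replicate 4 of UUO7 in 7 of 9. R4W replicate 4 had the lowest injured tubule markers (399 FPKM against 507 to 533), macrophage markers (689.9 against 940.0 to 1368) and plasma cell markers (176 against 469 to 707, 4 of 5 with a row) of its group, and the highest proximal tubule markers (3812 against 2810 to 3542). R4W replicate 1 had the highest adipose markers, 1644 FPKM over 5 of 5 genes against 62.5 to 402 in the other 3. In UUO7 replicate 4, by contrast, the summed proximal tubule markers were lowest (1392 against 1519 to 1818) and the summed injured tubule markers highest (2163 against 1740 to 1961). The injured tubule markers were split in that library. Lcn2 (1107 FPKM against 748 to 888), Krt8 and Krt18 were the highest of the group. Havcr1 (429 against 443 to 510) and Sox9 (4.87 against 6.39 to 6.83) were the lowest, and Vcam1 lay in between. Among the controls, sham replicate 4 was the highest of its group in 7 of the 9 genes. Sham replicate 2 had adipose markers of 291 FPKM, against 40.4 to 48.5 in the other 3, and urothelium markers of 34.2 FPKM, against 1.45 to 2.31 (5 of 5 genes each). Without sham replicate 2 the calls against sham were 9 in UUO2, 8 in UUO7, 8 in R1W, 4 in R2W and 3 in R4W, beside 48.3%, 77.5%, 73.6%, 68.8% and 66.0% of all genes. Without sham replicate 4 they were 9, 8, 8, 7 and 4, beside 44.9%, 75.8%, 71.0%, 65.8% and 62.4% of all genes. The part of these differences in the levels of the 9 genes was not tested.

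Other genes of the pathway were read from 6 lists of 82 genes, of which 79 had a row (Pycr1, Slc7a11 and Fgf21 are not analysed here). At 2 days 56 rose and 8 fell, with a median of 0.52 beside 0.09 for all genes, and after rescaling 49 rose and 11 fell. At 7 days 54 rose and 9 fell, with a median of 0.45 beside 0.42 for all genes, and after rescaling 28 rose and 30 fell. At 4 weeks, against sham, 42 rose and 4 fell, or 15 and 30 after rescaling. Of all genes 32.3% were called higher and 17.0% lower at 2 days (25.3% and 25.5% rescaled), 60.1% and 17.8% at 7 days (36.5% each way rescaled), and 54.8% and 11.6% at 4 weeks (28.9% and 31.1% rescaled). At 1 week of recovery, against 7 days, 2 of the 79 rose and 15 fell, beside 6.47% and 8.04% of all genes. Those 17 calls became 10 without UUO7 replicate 1, 11 without UUO7 replicate 3, 10 without R1W replicate 1 and 9 without R1W replicate 4. The calls over all genes fell in the same fits, from 14.5% to 9.10%, 8.66%, 9.28% and 7.55%.

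ATF4 targets had the highest median of the 6 lists at 2 days. Of 19 ATF4 targets 17 rose and 1 fell at 2 days (median 1.07), 14 rose and 2 fell at 7 days (median 1.22, or 12 and 5 after rescaling), and 11 rose and 2 fell at 4 weeks (median 0.78, or 8 and 6). Beside them 32.3%, 60.1% and 54.8% of all genes were called higher at these times in the deposited values. Atf3, a stress transcription factor, rose by 2.89 at 2 days, 3.16 at 7 days and 2.20 at 4 weeks, from 0.873 ± 0.443 FPKM in sham (SD, n = 4) to 15.8 ± 3.81 in UUO7. Nupr1, a stress-induced nuclear protein, rose by 1.30, 2.97 and 2.63 in the same groups, although its sham libraries were uneven (26.5 ± 30.9 FPKM). Gdf15, a secreted stress hormone, rose by 2.57 and 2.62 and differed by 0.74 at 4 weeks (limma adjusted p = 0.134). Shmt2, the mitochondrial serine hydroxymethyltransferase, went the other way and fell by 0.95, 1.47 and 0.58, and Vldlr, a lipoprotein receptor, was at 0.08, -0.67 and -0.25, called at 7 days alone in the deposited values, and called lower at 4 weeks after rescaling (-0.61, limma adjusted p = 0.000252).

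All 12 aminoacyl-tRNA synthetases, which charge tRNAs with amino acids, rose at 2 days under both scalings (median 0.77, or 0.64 rescaled), when 32.3% of all genes were called higher, or 25.3% rescaled. At 7 days 9 rose and 0 fell, or 3 rose and 4 fell after rescaling, beside 60.1% of all genes higher and 36.5% each way rescaled. Cars rose by 1.06 and 1.20, Mars by 0.88 and 0.92 and Lars by 0.68 and 0.68 at 2 and 7 days, and at 4 weeks they were 0.35, 0.16 and 0.28 from sham, Mars not being called. After rescaling Cars and Lars were not called at 4 weeks either (-0.0040 and -0.07, limma adjusted p = 0.986 and 0.490). At 4 weeks 4 rose and 1 fell in the deposited values, and 0 rose and 4 fell after rescaling, beside 54.8% of all genes higher and 11.6% lower, or 28.9% and 31.1% rescaled.

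The ER folding and ER-associated degradation lists had lower medians, 0.43 and 0.06 at 2 days, and genes that moved both ways. Of 17 ER folding genes 11 rose and 3 fell at 2 days (9 and 3 rescaled) and 11 rose and 2 fell at 7 days (4 and 7 rescaled). All-gene shares were 32.3% higher and 17.0% lower at 2 days, and 60.1% and 17.8% at 7 days, or 36.5% each way rescaled. Manf, a secreted ER protein, rose by 1.15 and 0.96, Fkbp11, a prolyl isomerase of secretory cells, by 1.07 and 1.00, and Pdia6, a disulfide isomerase, by 0.52 and 0.90, and each was also called higher after rescaling. Dnajc3, a BiP co-chaperone, fell by 0.19 and 0.56, while Sil1, a BiP exchange factor, was at -0.05 at 2 days and fell by 0.33 at 7 days. Of 13 genes of ER-associated degradation and translocation, the group to which Herpud1 is nearest in role, 6 rose and 2 fell at 2 days and 8 rose and 4 fell at 7 days, but after rescaling 2 rose and 4 fell at 2 days and 1 rose and 8 fell at 7 days. Sec61b, a translocon subunit, rose by 0.63 and 0.94, Derl3 by 0.87 and 0.66, and Syvn1, a ubiquitin ligase, by 0.27 and 0.60. After rescaling Syvn1 was not called at 2 days (0.15, limma adjusted p = 0.220), and Derl3 and Syvn1 were not called at 7 days (0.43 and 0.13, adjusted p = 0.0539 and 0.226). The mannosidase-like genes Edem1 and Edem3 fell by 0.45 and 0.31 at 7 days, and Edem1 was called lower at 2 days after rescaling alone (-0.29, limma adjusted p = 0.0204, against -0.16 and 0.145). At 4 weeks Manf, Fkbp11, Pdia6, Derl3 and Syvn1 were called higher than sham (0.48, 0.33, 0.32, 0.78 and 0.25) and Sil1 lower (-0.20), and of the 5 higher ones only Derl3 was called after rescaling (0.62). Dnajc3 (-0.06), Sec61b (0.18), Edem1 (-0.20) and Edem3 (-0.09) were not called at 4 weeks in the deposited values. After rescaling Dnajc3 (-0.43, limma adjusted p = 0.000356), Edem1 (-0.56, limma adjusted p = 7.62e-05) and Edem3 (-0.44, limma adjusted p = 0.000347) were called lower at 4 weeks, and Sec61b was not (-0.20, limma adjusted p = 0.202).

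**Figure D4:**
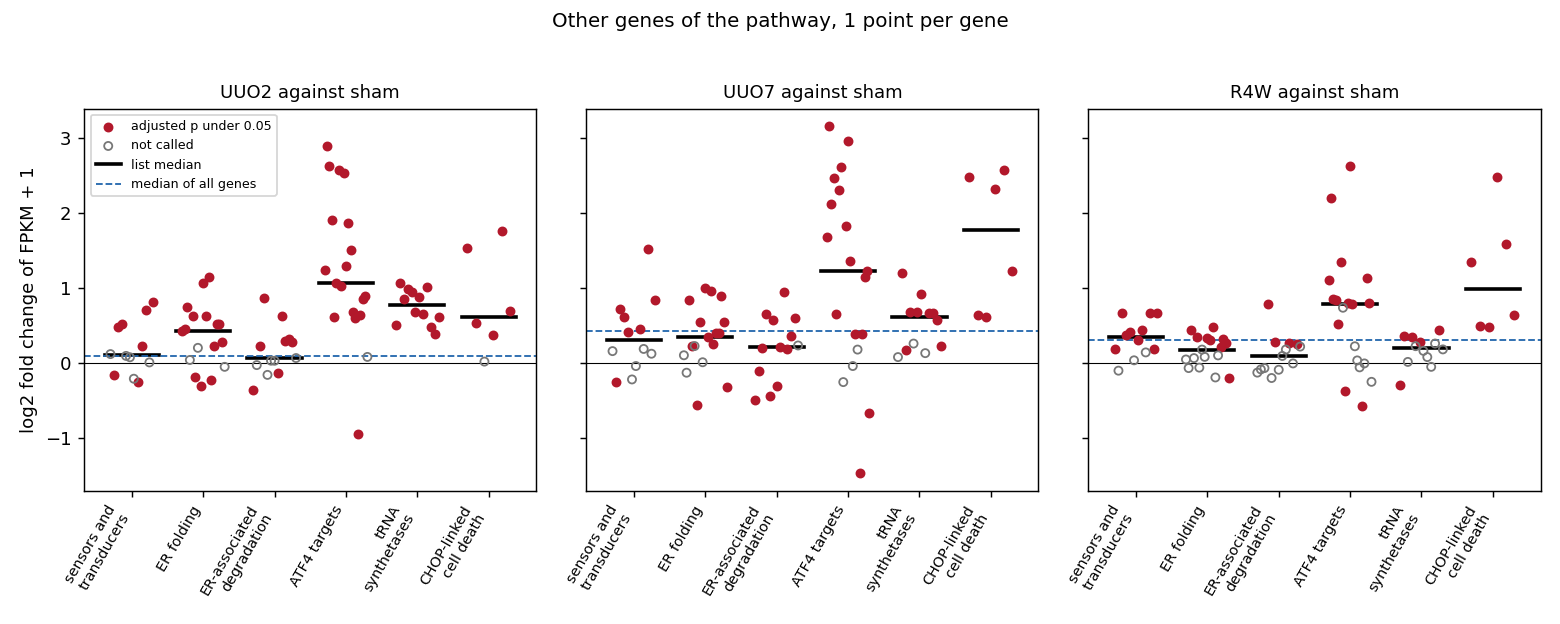
Log2 fold change of FPKM + 1 against sham in UUO2, UUO7 and R4W for the 79 listed genes other than the 9 members, 1 point per gene (filled where limma called it, adjusted p under 0.05), by list, with the list median (black bar) and the median of all genes (dashed line). ATF4 targets and CHOP-linked genes have medians above that of all genes in each panel, whereas in UUO7 the ER folding and degradation medians (0.34 and 0.21) lie below it (0.42), with single genes on both sides.

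Among the sensors, Eif2ak3 (PERK) rose by 0.52 at 2 days and 0.61 at 7 days, the latter 0.16 and not called after rescaling (limma adjusted p = 0.0796). Xbp1 rose by 0.81 and 0.84, called under both scalings. Ppp1r15a (GADD34), which recruits the eIF2 phosphatase, rose by 0.71 and 1.52, also under both. Ern1 (IRE1) was at -0.21 and -0.04 and not called, or lower after rescaling (-0.33 and -0.44), and Atf6 was at 0.12 and 0.16, not called, or at -0.27 and called lower at 7 days after rescaling. At 4 weeks Eif2ak3 (0.37), Xbp1 (0.67), Ppp1r15a (0.67), Ern1 (0.31) and Atf6 (0.19) were called higher in the deposited values and none of them after rescaling, when Atf6 was lower (-0.14). The table gives 1 value per gene, so spliced Xbp1 was not measured apart from unspliced.

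All 6 genes of cell death linked to CHOP rose at 7 days (median 1.77, or 5 of 6 called rescaled), and 5 of 6 rose at 2 days. Of all genes 60.1% were called higher at 7 days (36.5% rescaled) and 32.3% at 2 days (25.3% rescaled). Pmaip1 (NOXA) rose by 1.76 and 2.58 and Bbc3 (PUMA) by 1.53 and 2.49 at 2 and 7 days, and they stood 1.59 and 1.34 above sham at 4 weeks. The list also holds Bcl2, a survival gene known to be repressed by CHOP, which rose by 0.53 and 0.64 at 2 and 7 days. Casp12, a caspase linked to the ER, was at 0.600 ± 0.227 FPKM in sham, 1.07 ± 0.330 in UUO2, 6.93 ± 0.445 in UUO7, 9.25 ± 1.37 in R1W, 9.32 ± 2.05 in R2W and 8.00 ± 1.71 in R4W (SD, n = 4), and the recovery ranges overlapped one another. Plasma cells are known for high levels of ER folding genes, and 4 of 5 of their markers had a row and summed to 18.0 to 29.9 FPKM in sham, 10.6 to 17.9 in UUO2, 60.6 to 106 in UUO7 and 176 to 707 in R4W. Their part in the Sdf2l1, Derl3 and Fkbp11 levels was not tested.

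The genes whose pattern over the 24 libraries was most like that of 3 members were named by Pearson r on log2(FPKM + 1), with genes averaging under 10 FPKM left out. For Hspa5 they were Hyou1 (0.901), Ccar1 (0.825) and Pdia4 (0.806), for Atf4 they were Apex1 (0.963), Prps1 (0.960) and Gar1 (0.955), and for Trib3 they were Acat3 (0.971), Fgg (0.966) and Fgb (0.966). These points share groups and the scaling of each library, and the values are a description. Fgg, a fibrinogen chain gene, went from a mean of 6.63 FPKM in sham to 573 in UUO2 and 112 in UUO7, an order of groups like that of Trib3.

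The authors' deposited table also holds log2 fold changes of their own, whose base and direction were inferred here from their slope against the sample columns. In the authors' deposited table the UUO7 against sham values were -0.07 for Hspa5, 0.04 for Hsp90b1, 0.25 for Sdf2l1, -1.33 for Herpud1, 0.72 for Ddit3, 0.62 for Atf4, 2.44 for Trib3, 1.52 for Asns and -0.22 for Chac1. For Hspa5, Hsp90b1, Sdf2l1 and Chac1 those values in the authors' deposited table carry adjusted p of 0.558, 0.811, 0.0670 and 0.619. At 4 weeks against sham the authors' deposited table gives 0.57 for Ddit3, 0.43 for Sdf2l1, -0.43 for Herpud1 and -1.33 for Chac1. At an adjusted p under 0.05 the authors' deposited table calls 5 of the 9 genes in R1W against UUO7, where limma called 3: Chac1 (-1.44, adjusted p = 3.61e-06 in that table) and Ddit3 (-0.40, adjusted p = 0.00312) are the added ones. By the same threshold the authors' deposited table calls 5 in UUO7, 5 in R1W, 5 in R2W and 5 in R4W against sham. It calls 8 in UUO7 against UUO2. In the same order limma on the deposited values called 8, 8, 7, 4 and 6, and after rescaling 5, 3, 3, 4 and 8. Rescaled limma called 73.0%, 68.3%, 63.6%, 60.1% and 62.0% of all genes. In R4W the authors' deposited table has Ddit3 and Sdf2l1 higher and Hsp90b1, Herpud1 and Chac1 lower. Limma on the deposited values called Ddit3, Sdf2l1, Hspa5 and Asns higher. After rescaling it called Ddit3 and Sdf2l1 higher and Herpud1 and Chac1 lower. In the authors' deposited table Chac1 was below sham in R1W (-1.65, adjusted p = 6.64e-05) and R2W (-1.36, adjusted p = 0.00130) and Hsp90b1 in R4W (-0.24, adjusted p = 0.00914), none of them called by limma on the deposited values. After rescaling limma called Chac1 lower in R1W and R2W (limma adjusted p = 0.0125 and 0.0342), but not Hsp90b1 in R4W (limma adjusted p = 0.0965).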

How the data were processed

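Whole-kidney polyA RNA from 24 mice was analysed in 6 groups of 4 taken from the sample titles. The authors deposited 1 table of 14785 rows and 24 sample columns, rounded to 2 decimals. Neither header nor labels name the unit of these deposited values, and FPKM was inferred from them, whose sums run from 717415 to 830179 per library. The authors deposited log2 fold changes and adjusted p-values of their own in the same table, per the file headers. Per the submitters' processing notes the tools were FastQC, RSEM, Bowtie2 and DESeq2 and the build was mm10, with versions and settings not given in the sources used here. The smallest gene mean in the table is 1, and weaker genes could not be assessed.

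The 9 genes, the pathway and marker lists and the motifs were chosen with earlier results of these data known. The test was limma (version 3.58.1, R version 4.3.3). Linear models of log2(FPKM + 1) were moderated by eBayes with a mean trend, with 1 coefficient per group, all 24 libraries and Benjamini-Hochberg adjustment over all genes. Spread is the SD of 4 mice, while SE is limma's moderated standard error. Of the pathway lists, 5 sensors and, per other list, up to 3 called genes of greatest rise and 3 of greatest fall in UUO7 against sham were named, and 3 genes of most like pattern for each of Hspa5, Atf4 and Trib3. A gene that this rule names is not reported here. Alternatives were 2 other scalings, pseudocounts of 0.1 and 10, a mean of at least 10 FPKM, a fold of at least 2, fits on the 2 groups compared or without UUO2, the replicate block, R4W replicate 2 placed in R2W, and leaving out each replicate. No 2 libraries held the same values: at most 0.249% of the genes over 10 FPKM in either were equal. Coordinates are those of GRCm38, 8 of the 9 members having the same start and end in GENCODE M21, and promoter sequences are RefSeq's (GRCm38.p6). The test was also run on simulated data with known changes in UUO7 against sham. Of 100 genes changed by 1 on the log2 scale it called 96 in the right direction, and of 100 changed by 2 it called 97. It also called 7 unchanged genes. The simulation held no shift shared by all genes, so it cannot speak to the choice of scaling. Python 3.11.15 with pandas 2.3.3 and numpy 2.4.6 made the tables.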

Additional observations from a re-analysis of the deposited data

Results flagged for a closer look

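UUO2 replicate 2 lay far from the other 3 libraries of its group in Trib3, at 4.78 FPKM, and in Chac1, at 3.22 FPKM, by Dixon's criterion for 4 samples. Of 54 groups checked (9 genes in 6 groups) 2 went past the limit, where chance gives about 2.7.

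The effect against sham of 6 genes differed between 2 and 7 days of obstruction, by limma's test of the difference itself, and time cannot be told apart from whatever else sets the UUO2 libraries apart. Of all genes 66.7% were called in the same comparison, so that 6 of 9 is at the background share when direction is set aside. By direction, all 6 were lower, beside 52.0% of all genes called higher and 14.7% lower. The Sdf2l1, Herpud1 and Asns calls were each lost when a single library was left out. The log2 fold changes of UUO7 against UUO2 were -0.49 for Hspa5, -0.45 for Sdf2l1, -0.36 for Herpud1, -1.03 for Trib3, -0.59 for Asns and -1.64 for Chac1.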

How the results depend on the processing

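Of the counts of called genes recomputed under the alternatives 209 stayed within 1.5 times the reported count and 32 did not. Median-ratio rescaling gave 5 members called in UUO7 against sham and 3 each in R1W and R2W against sham, beside 73.0%, 68.3% and 63.6% of all genes. It reversed the sign of Hspa5 (-0.18) and Chac1 (-0.082) in UUO7 against sham, of Hsp90b1 (-0.34) and Atf4 (-0.18) in UUO7 against UUO2, of Hsp90b1 (0.018) and Sdf2l1 (0.019) in R1W against UUO7, of Hspa5 in R1W (-0.14) and Atf4 in R2W (-0.041) against sham, and of Hspa5 (-0.056), Hsp90b1 (-0.23), Herpud1 (-0.37) and Atf4 (-0.018) in R4W against sham. Chac1 in R4W against R2W, at -0.0023, turned to 0.0039 on rescaling, 0.012 with equal sums and 0.00046 with a pseudocount of 10. Equal sums reversed Hspa5 in R1W against UUO7 (-0.0021). With a fold of at least 2 the members called were 5 in UUO2 against sham, 4 in UUO7 against sham, 2 in UUO7 against UUO2, 2 in R4W against UUO7, 0 in R1W against sham (9 at an unadjusted limma p under 0.05), 1 in R2W against sham and 0 in R4W against sham (5 at an unadjusted p under 0.05). The shares of all genes were 8.75%, 27.6%, 16.2%, 6.03%, 20.4%, 16.6% and 14.8%. The pathway genes called with that fold were 17 in UUO2, 19 in UUO7 and 8 in R4W against sham and 2 in R1W against UUO7, of 79, beside 8.75%, 27.6%, 14.8% and 1.33% of all genes. At a minimum mean of 10 FPKM, 30 pathway genes of 58 tested were called in R4W against sham, beside 67.3% of all those tested. With only the 2 groups, and without UUO2, 5 members were called in R1W against UUO7 (14.3% and 17.6% of all genes), and without UUO2 7 in R4W against sham (67.4%). With R4W replicate 2 in R2W, 2 members were called in R4W against sham (61.7% of all genes), and Herpud1 (-0.012 against sham) and Hspa5 (-0.055 against UUO7) reversed. The cause of these shifts was not tested, apart from the smaller number of genes at the higher mean.

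Leaving out 1 replicate gave 4 to 8 members in R2W against sham, 2 to 4 in R4W against sham, and 9 to 19 pathway genes in R1W against UUO7, beside 63.3% to 70.6%, 61.2% to 66.0% and 7.55% to 17.1% of all genes. Signs reversed within these ranges: in UUO7 against UUO2, Hsp90b1 -0.052 to 0.078 and Atf4 -0.057 to 0.26; in R1W against UUO7, Hspa5 -0.11 to 0.073, Hsp90b1 -0.091 to 0.040 and Sdf2l1 -0.12 to 0.067. The same held for Hspa5 in R4W against UUO7 (-0.055 to 0.11) and Herpud1 in R4W against sham (-0.040 to 0.077), and for differences not called between recovery groups: in R2W against R1W, Hsp90b1 -0.14 to 0.0062, Herpud1 -0.054 to 0.15 and Trib3 -0.12 to 0.035, and in R4W against R2W, Atf4 -0.059 to 0.091, Asns -0.22 to 0.11 and Chac1 -0.097 to 0.060.

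Replicate numbers recur across groups but do not pair the animals: across genes, same-numbered deviations from the group means correlated at -0.47 to 0.45 over the 10 comparisons, and in 0 of the 10 were all 4 correlations over 0.1. With the replicate block 9 members were called in UUO2 against sham, 8 in UUO7 against sham, 5 in R4W against UUO7, 8 in R2W against sham and 5 in R4W against sham, beside 48.2%, 77.3%, 46.8%, 68.6% and 65.7% of all genes. The counting error of Trib3 and Chac1, at 0.713 and 1.81 FPKM in sham, is unknown without counts.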
